A study of Oryzias latipes with 27 samples.

Results

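The ovaries of XY medaka that lack a working DMY gene were compared with the ovaries of wild-type XX females at 120 days post hatch (D120). Medaka (Oryzias latipes) is a small egg-laying fish with an XX/XY system, and DMY is the Y-linked gene that starts testis development. The comparison took all samples whose labels give this stage, tissue and genotype, which were 6 of the 27 small RNA libraries. MT_Fe_Ov, with 3 libraries, is the ovary of XY fish in which DMY was disrupted with TALEN nucleases and whose line is maintained as a stock. Its samples are labelled as a DMY knockout by genotype, female by sex and ovary by tissue, although their titles call the fish male. WT_Fe_Ov, also with 3 libraries, came from XX females of the wild type at the same age. Neither group carries a working DMY, since XX fish have no Y chromosome. The groups differ in their sex chromosomes and in the knockout line, and these cannot be told apart. The 3 testis libraries of wild-type XY males of the same age, WT_Ma_Te, entered the fit and are given beside the ovaries. The replicates are labelled as biological, but how many fish each library holds is not stated, so a p-value measures the spread between libraries. All 437 mature miRNAs counted in the study were members. Of these, 409 had a count in at least 1 of the 6 ovary libraries, 354 had one in all 6, and 344 passed the minimum of 10 counts in at least 3 of the 9 libraries and were tested.

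A miRNA is a short RNA that guides an Argonaute protein to messenger RNAs, mostly through its seed, the stretch of bases near its 5′ end, and lowers their translation and stability. Each hairpin precursor can yield a mature miRNA from its 5′ arm (5p) and another from its 3′ arm (3p), and usually 1 of them dominates. miR-202 is a gonad-enriched miRNA whose 5p arm is abundant in the adult fish ovary, where it bears on follicle growth and female fertility. miR-21 is widely expressed and is known in mammals from stroma, immune cells and regenerating or fibrotic tissue. The level of a miRNA is given here as RPM, its reads per 1000000 miRNA reads of the library.

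The study designed RT-PCR assays for 6 of the members, and their sequences are shown because the study chose these miRNAs for a second kind of measurement. Each line is the sequence spanned by the forward primer after its added tail and by the last 6 bases of the reverse transcription primer, read on the miRNA strand and written as DNA. Capitals mark bases 2 to 8, the seed.
miR-10b-5p: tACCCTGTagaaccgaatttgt
miR-99a-5p: aACCCGTAgatccgatcttgtg
miR-146a-5p: tGAGAACTgaattccatagatgg
miR-214-3p: tACAGCAGgcacagacaggcag
miR-30e-2-3p: cTTTCAGTcggatgtttgcag
miR-7-5p: tGGAAGACtagtgattttgttgtg
No pair of the 6 had the same seed. In MT_Fe_Ov, miR-146a-5p, a miRNA of leukocytes, was at 7618, 11202 and 8327 RPM, against 11272, 10151 and 9551 RPM in WT_Fe_Ov. miR-214-3p, of mesenchymal stroma, was at 6223, 7147 and 4437 RPM in MT_Fe_Ov, against 3750, 6644 and 5686 RPM in WT_Fe_Ov. miR-99a-5p was at 6372, 4489 and 4046 RPM in MT_Fe_Ov and at 4423, 3894 and 2978 RPM in WT_Fe_Ov. The groups overlapped for all 6, whose log2 fold changes (MT_Fe_Ov over WT_Fe_Ov) lay between -0.26 for miR-146a-5p and 0.31 for miR-99a-5p, and none was called.

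The ovary libraries held 1352578 to 2585608 miRNA counts in MT_Fe_Ov and 1836126 to 3517578 in WT_Fe_Ov. They contained 376 to 383 miRNAs with a count in MT_Fe_Ov and 375 to 391 in WT_Fe_Ov. Library WT_Fe_Ov replicate 3 stood apart: 16 of the 344 tested miRNAs were more than 2-fold higher in it than in any of the other 5 ovary libraries on the log2(RPM + 1) scale, against 0 to 5 in each of the others. The calls, the count of unadjusted p-values and the medians of lists that rest on it are given with and without it, single miRNAs only in part. Some markers of the other gonad were low in both ovary groups, while miR-34a-5p was less far from the testis. miR-7-5p, abundant in the testis, was at 3102, 2653 and 4177 RPM in MT_Fe_Ov, 3158, 2642 and 2350 RPM in WT_Fe_Ov and 57829 to 72426 RPM in WT_Ma_Te. miR-449-1-5p, of a family known from sperm-forming and multiciliated cells in mammals, was at 0 to 3.70 RPM in MT_Fe_Ov, 0.975 to 1.42 RPM in WT_Fe_Ov and 388 to 514 RPM in WT_Ma_Te. miR-34a-5p, listed here with miR-449, was at 684 to 1031 RPM in MT_Fe_Ov, 738 to 952 RPM in WT_Fe_Ov and 1280 to 1897 RPM in WT_Ma_Te. miR-31a-5p was at 973 to 11306 RPM in MT_Fe_Ov, 3168 to 4886 RPM in WT_Fe_Ov and 91.1 to 113 RPM in WT_Ma_Te. By miR-7-5p, miR-449-1-5p and miR-31a-5p, which set these testis libraries apart from WT_Fe_Ov, the MT_Fe_Ov libraries lay with the ovary. These miRNAs were chosen with results of these data known. In contrast, miR-202-5p, abundant in WT_Fe_Ov, had no count in the MT_Fe_Ov or the testis libraries. miR-202-5p is no marker of the ovary alone in this study: at 30 days post hatch (D30) it held 0.792% to 1.21% of the counts in WT_Fe_Ov, against 12.7% to 14.0% in WT_Ma_Te.

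Across the 344 tested miRNAs, 2 differed between the ovary groups at the thresholds of a DEM, a log2 fold change of 1 or more in size and an adjusted p no higher than 0.05, which is 0.581%. miR-21-5p was higher in MT_Fe_Ov and miR-202-5p was lower (0.291% each), each the most abundant miRNA of the group in which it was high. DESeq2 called the same 2 miRNAs. Since these are whole ovaries, fewer cells of a type and less RNA per cell cannot be told apart.

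miR-21-5p made up 272840, 192458 and 210230 RPM of the MT_Fe_Ov libraries, against 748, 1335 and 1897 RPM in WT_Fe_Ov. The testis libraries lay between them, at 49566, 60292 and 59126 RPM. No library of one ovary group came near the other, and the ratio of the means was 170. It ranked first of all miRNAs in MT_Fe_Ov and in position 78 in WT_Fe_Ov. In read shares it held 22.5% ± 4.22 of the miRNA counts in MT_Fe_Ov and 0.133% ± 0.0575 in WT_Fe_Ov (SD, n = 3 each). The log2 fold change was 7.38 (SE 0.348, 95% interval 6.61 to 8.16), with an adjusted p of 4.39e-07 in edgeR's quasi-likelihood test. RefSeq places hairpins of this name on chromosome 13 (24842964 to 24843058) and chromosome 14 (21851054 to 21851140) of assembly ASM223467v1, both outside other annotated genes, and the count table has 1 entry for their 5p arm.

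miR-202-5p had 0 counts in all 3 MT_Fe_Ov libraries, against 495036, 848447 and 551223 counts in WT_Fe_Ov. In WT_Fe_Ov these were 269609, 241202 and 268834 RPM, or 26.0% ± 1.62 of the miRNA counts (SD, n = 3). A count of 0 allows a share of at most 0.000222% in the shallowest MT_Fe_Ov library, for counting error only. Set against the mean floor of 3 counts per library, 1.76 RPM, the deposited count was at least 147878-fold lower in MT_Fe_Ov. This bound covers counting error only, and it takes the deposited 0 as a measured level. Whether reads of this arm were lost when the reads were collapsed or counted was not tested. edgeR's quasi-likelihood test gave an adjusted p of 1.31e-06, and its fitted log2 fold change of -22.02 depends on the prior count. The testis libraries also had 0 counts. Besides miR-202-5p, no miRNA had a count in all 3 libraries of 1 ovary group and in none of the other.

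The share of each of these miRNAs was compared between the ovary groups with exact two-sided permutation tests over the 6 libraries, in a family of 6 tests on library totals and shares. With 3 libraries against 3 the smallest p this test allows is 0.1, and both shares reached it (adjusted 0.3). Summed, the pair held 22.5% ± 4.22 of the counts in MT_Fe_Ov and 26.1% ± 1.62 in WT_Fe_Ov, a difference of -3.60 percentage points (exact permutation p of 0.4, adjusted 0.5, n = 3 each). The 10 most abundant miRNAs held 62.4% ± 0.923 in MT_Fe_Ov and 63.4% ± 2.04 in WT_Fe_Ov (exact permutation p of 0.5). The median log2 fold change of all 344 was -0.01 with TMM scaling, which itself centres the fold changes near 0. With scaling by library totals only the median was 0.05. Shares of a fixed total also constrain the median, so neither scaling can show a shift of all miRNAs together.

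The other arms of both hairpins were not called. miR-202-3p was at 634, 943 and 1105 RPM in MT_Fe_Ov, against 1096, 375 and 897 RPM in WT_Fe_Ov, and the groups overlapped. Its log2 fold change was 0.10 (95% interval -0.78 to 0.98), and in the testis it was at 1471, 1422 and 1157 RPM. miR-21a-3p was at 1182, 1727 and 1312 RPM in MT_Fe_Ov, against 1327, 2207 and 2685 RPM in WT_Fe_Ov, a log2 fold change of -0.59 that did not pass (95% interval -1.13 to -0.05, edgeR adjusted p of 0.996). miR-21b-3p was at 746, 469 and 734 RPM in MT_Fe_Ov and at 591, 592 and 991 RPM in WT_Fe_Ov. The log2 fold change of miR-21b-3p was -0.20 (95% interval -0.84 to 0.44). The 3p arms of miR-21 thus overlapped between the ovary groups, while their 5p arm did not.

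Reads of the 5p arm were also divided by those of the 3p arm in each library. For miR-21 this ratio was 142, 87.7 and 103 in MT_Fe_Ov, against 0.390, 0.477 and 0.516 in WT_Fe_Ov. The testis libraries of the stage gave 83.7 to 112, and the 20 libraries outside D120 WT_Fe_Ov with at least 10 counts of the 3p arm gave 37.6 to 3107. Among the latter were D10 libraries, which held gonadal primordia together with adjacent tissue. The libraries whose ratio stood apart were thus the 3 of WT_Fe_Ov, in which the 3p arms outnumbered the 5p arm. For miR-202 the ratio was 0 in every MT_Fe_Ov library, against 246, 643 and 300 in WT_Fe_Ov. The 17 libraries with at least 10 counts of miR-202-3p outside D120 MT_Fe_Ov and testis gave 3.26 to 643, the highest in D120 WT_Fe_Ov. Here the 3 libraries of MT_Fe_Ov stood apart together with those of the testis. In all of the study's groups, 3 miRNAs had at most 3 counts in a library while another group of the same stage exceeded 10000 RPM: miR-202-5p as given, miR-204-5p in all 3 libraries of D30 WT_Fe_Ov, and miR-26a-2/3-ba-5p in D10 MT_Fe_Ov replicate 3. The deposited counts do not tell an arm that was absent from the tissue apart from one whose reads were lost when reads were collapsed or counted. The same holds for the low counts of miR-21-5p in WT_Fe_Ov, so the fold changes of both DEMs rest on the deposited counts being complete, which was not tested.

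**Figure D1:**
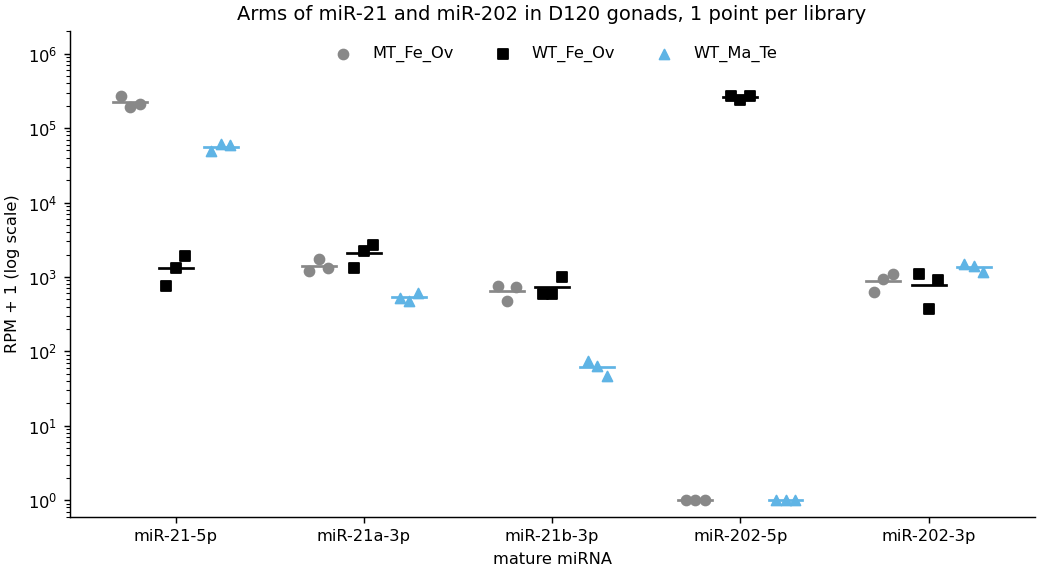
RPM + 1 on a log axis for the arms of miR-21 and miR-202 in D120 gonads, with 1 point per library (grey circles MT_Fe_Ov, black squares WT_Fe_Ov, blue triangles WT_Ma_Te) and a bar at the mean of 3 libraries. miR-21-5p lies at 192458 to 272840 RPM in MT_Fe_Ov and 748 to 1897 RPM in WT_Fe_Ov, miR-202-5p at 0 and at 241202 to 269609 RPM, while the 3p arms of both groups overlap.

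Apart from these miRNAs the profiles of the ovary groups lay close together. On log2(RPM + 1), Pearson's r taken over miRNAs was 0.985 to 0.989 between MT_Fe_Ov libraries, 0.980 to 0.988 between WT_Fe_Ov libraries and 0.953 to 0.966 between the groups. miRNAs are not independent replicates, so these values are descriptions. Without miR-21-5p and miR-202-5p the values between the groups were 0.977 to 0.990, overlapping the range given for libraries of the same group. A fit without both of them tested 342 miRNAs and called 0 (13 at an unadjusted p under 0.05, smallest adjusted p of 0.993 in edgeR). Both had been chosen as the only DEMs of this same comparison. The 0 calls and the higher r between the groups thus largely follow from the removal and are descriptions, not tests. Among the 10 most abundant miRNAs of each group 8 were shared, and 47 among the 50 most abundant.

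**Figure D2:**
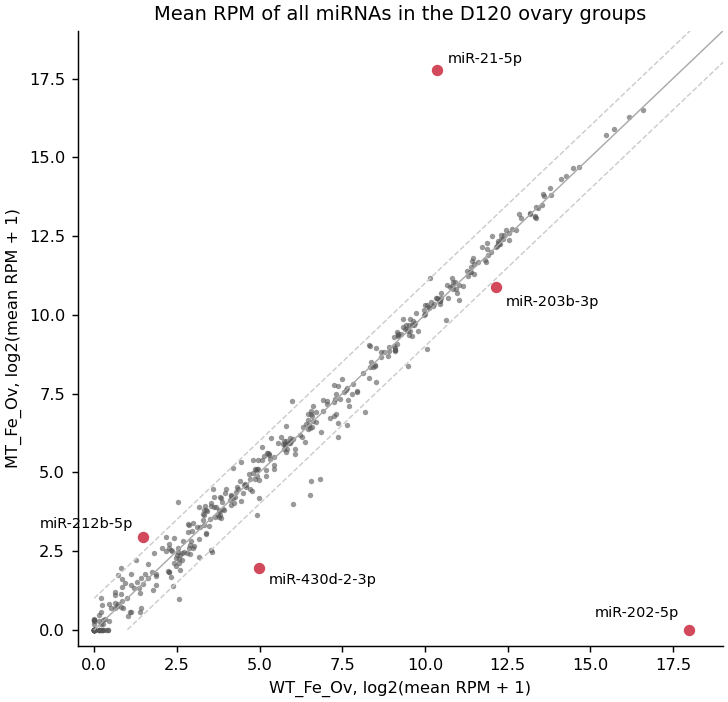
Mean RPM of 437 miRNAs in MT_Fe_Ov (vertical axis) against WT_Fe_Ov (horizontal axis), both as log2(mean RPM + 1) over 3 libraries; the solid line marks equal means and the dashed lines a 2-fold difference on this scale. miR-21-5p and miR-202-5p stand far from the diagonal, and miR-212b-5p, miR-430d-2-3p and miR-203b-3p are named among the others.

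As a class, the miRNAs above 10000 RPM had the narrowest intervals, with a median of 0.52 to either side, against 0.78 over all. This did not hold for each of them. miR-451-5p, of red blood cells, was at 47854, 122921 and 106712 RPM in MT_Fe_Ov, against 75041, 112642 and 109964 RPM in WT_Fe_Ov. Here replicate 1 of each group was its lowest library, and the groups overlapped (log2 fold change -0.14, 95% interval -0.95 to 0.67). let-7a-3-5p, of a family that promotes differentiation, was at 68642, 71073 and 98618 RPM in MT_Fe_Ov and at 104468, 68408 and 47372 RPM in WT_Fe_Ov. Its log2 fold change was 0.01 (95% interval -0.75 to 0.78). miR-143-3p, of smooth muscle and stroma, was at 63072, 74950 and 44889 RPM in MT_Fe_Ov and at 46972, 67964 and 47452 RPM in WT_Fe_Ov. Positions 2 to 9 of both groups were held by the same miRNAs in the same order: miR-451-5p, let-7a-3-5p, miR-143-3p, miR-26a-2/3-ba-5p, miR-181a-5p, miR-22a-1-3p, let-7b-5p and miR-100-5p. Of the 17 tested miRNAs above 10000 RPM, 15 had a 95% interval of the log2 fold change within 1 unit of 0, so that a 2-fold difference lay outside it. Apart from the DEMs, the log2 fold changes of these miRNAs reached at most 0.20 in size, for miR-92a-3p, a member of the growth-linked miR-17-92 clusters. miR-92a-3p was at 19502, 15519 and 15200 RPM in MT_Fe_Ov, against 12995, 14839 and 14132 RPM in WT_Fe_Ov, which did not overlap (log2 fold change 0.20, 95% interval -0.18 to 0.58).

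The interval lay within 1 unit of 0 for 177 of the 344 miRNAs, which is 51.5%. It did so for 61 of 74 miRNAs between 1000 and 10000 RPM, 49 of 82 between 100 and 1000 RPM, 49 of 115 between 10 and 100 RPM and 3 of 56 at 10 RPM or less. For the others, mostly the less abundant miRNAs, a difference of 2-fold or more remained within the interval at this depth and number of libraries. The interval reached a median of 0.78 to either side of the fold change. The fold change itself was at least 1 in size for 25 of the 344 (7.27%). The narrowest were those of miR-92a-3p, miR-15a-2-5p (log2 fold change -0.03, -0.42 to 0.35), miR-23a-3p (-0.10, -0.49 to 0.29), miR-27c-3p (-0.01, -0.40 to 0.39) and miR-199-3p (-0.08, -0.48 to 0.31). In each of the last 4 the groups overlapped. miR-199-3p, of mesenchymal stroma, was at 13013, 14822 and 15221 RPM in MT_Fe_Ov and at 15406, 13559 and 14536 RPM in WT_Fe_Ov. The median coefficient of variation over the 173 tested miRNAs of at least 100 RPM was 19.1% in MT_Fe_Ov and 20.2% in WT_Fe_Ov.

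**Figure D3:**
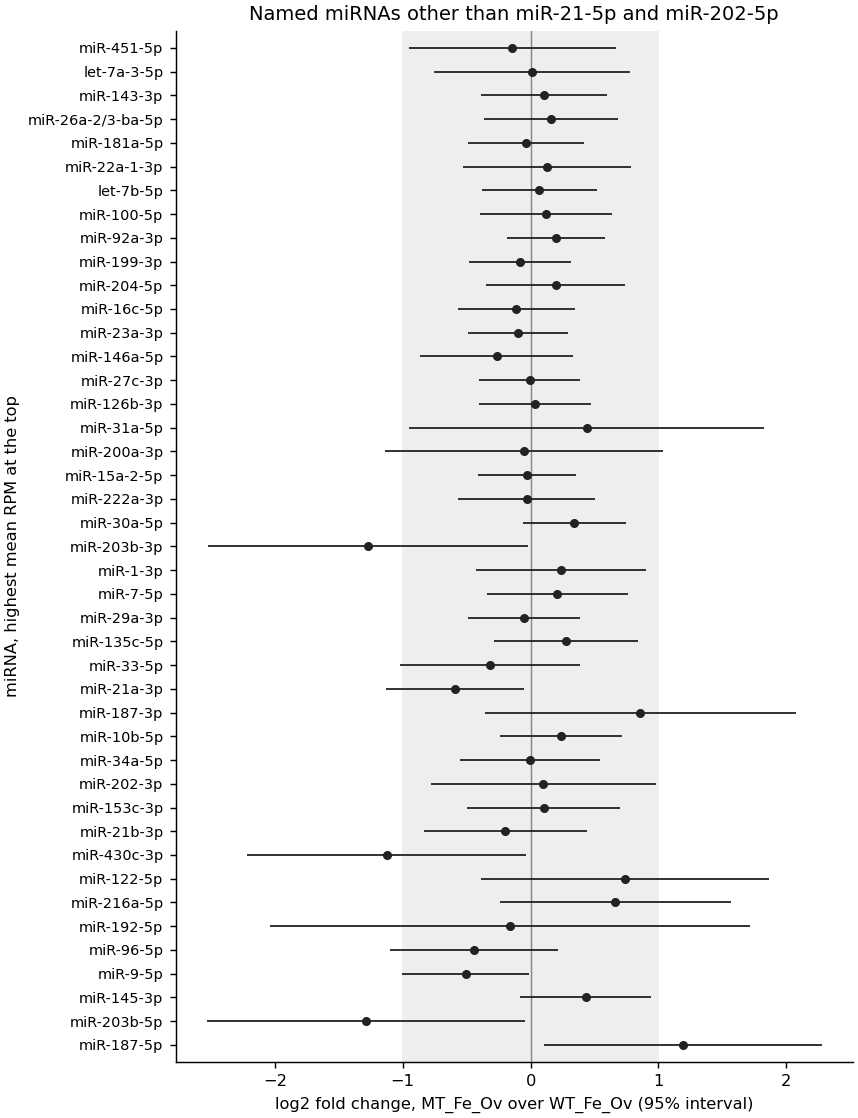
log2 fold change (MT_Fe_Ov over WT_Fe_Ov) with its 95% interval from edgeR for the 43 named miRNAs that were not called, ordered by mean RPM with the highest at the top; grey marks the band within 1 unit of 0. For 29 of them the whole interval lies in the band, and the values run from -1.29 for miR-203b-5p to 1.19 for miR-187-5p.

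At an unadjusted p under 0.05 there were 16 miRNAs (4.65% of those tested), 4 higher (1.16%) and 12 lower (3.49%) in MT_Fe_Ov, and all but the 2 DEMs had an adjusted p of at least 0.540 in edgeR. Of the 12 lower ones, 9 had their highest RPM of all 6 libraries in WT_Fe_Ov replicate 3. Without that library, and with the minimum in 2 libraries, the fit called the same 2 miRNAs, and 8 were at an unadjusted p under 0.05, of which 5 were higher and 3 lower in MT_Fe_Ov. The 3 lower ones, miR-202-5p, miR-124-3p and miR-9-5p, were also among the 12. RPM did not overlap between the groups for 26 of the 344 (7.56%), with MT_Fe_Ov above in 19 (5.52%) and below in 7 (2.03%).

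Besides miR-21-5p, the miRNAs higher in MT_Fe_Ov at an unadjusted p under 0.05 belonged to miR-212 and miR-187. miR-212b-5p, named here because it had the smallest p among the miRNAs not called, was at 5.68, 7.74 and 6.65 RPM in MT_Fe_Ov, against 1.09, 2.27 and 1.95 RPM in WT_Fe_Ov. Its groups did not overlap, but these were few reads, and its log2 fold change of 1.80 did not pass (SE 0.496, edgeR adjusted p of 0.540). miR-212a-5p was at 18.3, 20.1 and 8.87 RPM in MT_Fe_Ov and at 7.08, 6.25 and 0.975 RPM in WT_Fe_Ov. miR-187-5p was at 165, 201 and 96.1 RPM in MT_Fe_Ov, against 83.9, 79.6 and 23.9 RPM in WT_Fe_Ov (log2 fold change 1.19, adjusted p of 0.996). The other arm of its hairpin, miR-187-3p, was at 2506, 2810 and 1527 RPM in MT_Fe_Ov and at 1936, 1168 and 328 RPM in WT_Fe_Ov, which overlapped. In both arms of miR-187, WT_Fe_Ov replicate 3 was the lowest library. Without it the log2 fold changes were 0.77 for miR-187-5p and 0.39 for miR-187-3p. RefSeq places the miR-187 hairpin on chromosome 11 (8753719 to 8753805), within a protein-coding gene.

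Of the more abundant miRNAs, miR-30a-5p was at 4705, 4866 and 3978 RPM in MT_Fe_Ov, against 3147, 3526 and 3576 RPM in WT_Fe_Ov, a log2 fold change of 0.34 (95% interval -0.06 to 0.74). All 10 tested members of the broadly expressed miR-30 family had a log2 fold change above 0, with a median of 0.18 against -0.01 over all miRNAs, of which 166 of 344 were above 0. The median of the family was 0.05 without MT_Fe_Ov replicate 3, and 0 members were called, against 0.581% of all miRNAs. Their summed RPM was 10528, 10751 and 12715 in MT_Fe_Ov, against 7842, 10353 and 10308 in WT_Fe_Ov. On this scale, to which TMM factors were not applied, each MT_Fe_Ov library exceeded each WT_Fe_Ov library. miR-145-3p, of smooth muscle, was at 150, 142 and 117 RPM in MT_Fe_Ov and at 78.4, 116 and 97.5 RPM in WT_Fe_Ov. miR-216a-5p, known from the pancreas, was at 370, 473 and 709 RPM in MT_Fe_Ov and at 233, 302 and 425 RPM in WT_Fe_Ov, which overlapped.

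Among the lowest log2 fold changes after miR-202-5p were those of miR-430, a teleost family that clears maternal messenger RNAs in the early embryo. All 5 tested of its 11 members had a log2 fold change below 0, against 51.5% of all miRNAs. Their values ran from -1.12 to -3.32 with a median of -2.07, at unadjusted p-values of 0.012 to 0.045 in edgeR. With 0.581% of all miRNAs called, 0 of the 5 were called. Summed, the 11 members were at 299, 400 and 508 RPM in MT_Fe_Ov, against 470, 393 and 2287 RPM in WT_Fe_Ov and 1977 to 2351 RPM in WT_Ma_Te. WT_Fe_Ov replicate 3 alone was high among the ovary libraries and lay in the range of the testis. Its leading member, miR-430c-3p, was at 240, 335 and 413 RPM in MT_Fe_Ov and at 377, 317 and 1467 RPM in WT_Fe_Ov. Without WT_Fe_Ov replicate 3 the median of the family was -0.32, and miR-430c-3p was at -0.21 (95% interval -0.90 to 0.47). RefSeq places hairpins named miR-430c at 3 sites on chromosome 4, the first at 1912895 to 1912983 and the last at 1918946 to 1919031.

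The miRNAs of stratified epithelium, miR-203 and miR-205, followed the same library. All 5 members had a log2 fold change below 0, against 51.5% of all miRNAs, with a median of -1.27. With 0.581% of all miRNAs called, 0 of the 5 were called. Their summed RPM was 2300, 2295 and 2720 in MT_Fe_Ov, against 3656, 1616 and 12075 in WT_Fe_Ov. The leading member, miR-203b-3p, was at 1939, 1793 and 1919 RPM in MT_Fe_Ov and at 2852, 1264 and 9499 RPM in WT_Fe_Ov, and without WT_Fe_Ov replicate 3 its log2 fold change was -0.30 and the median of the list -0.54. miR-206-1-3p, of skeletal muscle, was at 11.4, 17.4 and 15.5 RPM in MT_Fe_Ov and at 7.08, 13.1 and 169 RPM in WT_Fe_Ov. The more abundant muscle miRNA miR-1-3p went the other way and was lowest in WT_Fe_Ov replicate 3. It was at 3068, 3158 and 4373 RPM in MT_Fe_Ov and at 3694, 2743 and 1994 RPM in WT_Fe_Ov, so muscle miRNAs as a list did not follow that library. The sensory miR-183 cluster, at 229, 426 and 476 RPM in MT_Fe_Ov, was at 369, 394 and 874 RPM in WT_Fe_Ov, again with replicate 3 highest, and its median log2 fold change was -0.44, or 0.02 without that library. The part of tissue other than ovary in that library was not tested.

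Most markers of other cell types were otherwise close. The leukocyte miRNAs (miR-142, miR-146, miR-150, miR-155 and miR-223) summed to 22284, 23996 and 22512 RPM in MT_Fe_Ov, against 25759, 25676 and 27155 RPM in WT_Fe_Ov, without overlap, and to 3895 to 8109 RPM in WT_Ma_Te. Of their 8 tested members 7 had a log2 fold change below 0, against 51.5% of all miRNAs, and 0 were called. The median was -0.22, but -0.04 without MT_Fe_Ov replicate 3 and 0.02 without WT_Fe_Ov replicate 2, so that its sign rested on 1 library. miR-223-3p, of granulocytes in mammals, was at 7407, 8236 and 10573 RPM in MT_Fe_Ov and at 10760, 7877 and 12038 RPM in WT_Fe_Ov, so that single members overlapped where the sum did not. miR-155-5p was high in MT_Fe_Ov replicate 1 alone, at 586 RPM there and 54.5 and 101 RPM in the other two, against 110, 333 and 90.7 RPM in WT_Fe_Ov. The miRNAs of red blood cells (miR-144 and miR-451) summed to 48959, 126363 and 108304 RPM in MT_Fe_Ov, against 75865, 115912 and 113117 RPM in WT_Fe_Ov, and the median log2 fold change of the 3 tested was -0.24. It was -0.83 without MT_Fe_Ov replicate 2, but 0.12 without MT_Fe_Ov replicate 1 and 0.10 without WT_Fe_Ov replicate 2. The neural miRNAs summed to 1683, 1636 and 1819 RPM in MT_Fe_Ov, against 1667, 1375 and 2115 RPM in WT_Fe_Ov, which overlapped. Their leading member, miR-153c-3p, was at 667, 791 and 991 RPM in MT_Fe_Ov and at 796, 580 and 805 RPM in WT_Fe_Ov (log2 fold change 0.10). The list also held the pair that stayed lower at an unadjusted p without WT_Fe_Ov replicate 3. miR-9-5p was at 112, 132 and 99.8 RPM in MT_Fe_Ov, against 138, 183 and 149 RPM in WT_Fe_Ov, which did not overlap (log2 fold change -0.51, 95% interval -1.01 to -0.01, edgeR adjusted p of 0.996). miR-124-3p, the neuronal miRNA, was at 10.1, 14.7 and 9.61 RPM in MT_Fe_Ov, against 18.0, 54.0 and 15.6 RPM in WT_Fe_Ov, also without overlap. Of the 10 tested neural miRNAs 7 had a log2 fold change below 0, against 51.5% of all miRNAs, and 0 were called. Their median was -0.21, and between -0.36 and -0.02 when each ovary library was left out, the value nearest 0 without WT_Fe_Ov replicate 1.

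Stroma, vessels and muscle overlapped as well. miR-126, of endothelium, summed to 7190, 6198 and 7161 RPM in MT_Fe_Ov and to 6402, 6101 and 6957 RPM in WT_Fe_Ov, with a median log2 fold change of 0.00. The stromal miR-199 and miR-214 summed to 25241, 28855 and 24433 RPM in MT_Fe_Ov and to 24057, 25158 and 26600 RPM in WT_Fe_Ov, with a median of 0.06. miR-143 and miR-145 summed to 57798 to 84585 RPM in MT_Fe_Ov and 53632 to 75719 RPM in WT_Fe_Ov. The miRNAs of skeletal and heart muscle summed to 6174, 6395 and 7863 RPM in MT_Fe_Ov and to 6421, 5677 and 5248 RPM in WT_Fe_Ov. miR-122-5p, of hepatocytes, was at 172, 809 and 605 RPM in MT_Fe_Ov, against 193, 266 and 482 RPM in WT_Fe_Ov. The gut miRNAs, led by miR-192-5p, summed to 474 to 610 RPM in MT_Fe_Ov and 309 to 1148 RPM in WT_Fe_Ov, where replicate 2 was the high library. These marker lists had 0 called members, and so had all of the 32 lists other than miR-21 and miR-202. With 0.581% of all miRNAs called, a count of 0 in lists of this size is no result about the lists.

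**Figure D4:**
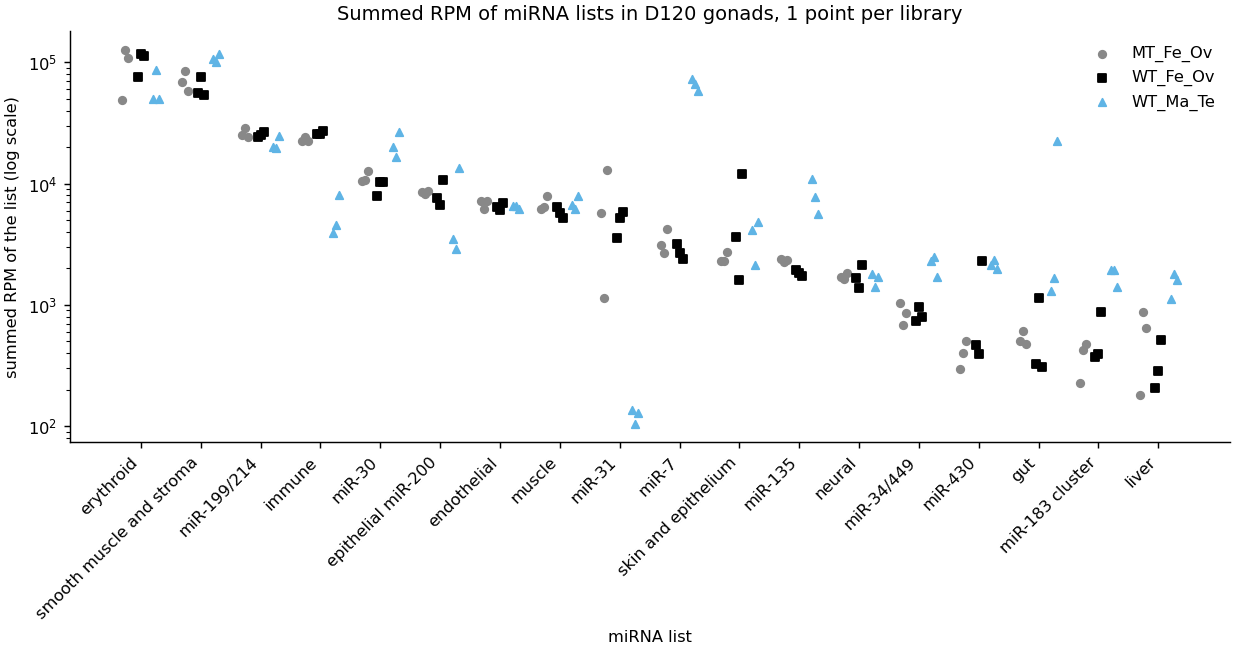
Summed RPM of 18 miRNA lists on a log axis, with 1 point per library (grey circles MT_Fe_Ov, black squares WT_Fe_Ov, blue triangles WT_Ma_Te). The skin and epithelium list is at 12075 RPM and the miR-430 list at 2287 RPM in WT_Fe_Ov replicate 3, above the other ovary libraries, and miR-7 and miR-31 separate the testis from both ovary groups.

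The larger families held to the same pattern. The 22 tested let-7 members had a median log2 fold change of -0.02, between -0.46 and 0.45, and their summed RPM was 135985, 137317 and 173673 in MT_Fe_Ov, against 179522, 136676 and 98495 in WT_Fe_Ov. The miR-17-92 clusters and their paralogues, 28 tested, had a median of 0.02 and summed to 32404 to 36483 RPM in MT_Fe_Ov and 28737 to 33090 RPM in WT_Fe_Ov. miR-29, which targets messenger RNAs of the extracellular matrix, had a median of -0.10 over 11 members. miR-15 and miR-16, linked to the cell cycle, had a median of -0.11 over 10. miR-26 had a median of 0.09 over 6, miR-181 of -0.09 over 8, and miR-23, miR-24 and miR-27 of 0.07 over 19. Of the 32 lists, the sums of miR-30, the leukocyte list and miR-135 were those that did not overlap besides miR-21 and miR-202. The sums are in RPM, without the TMM scaling of the fold changes, and whether a sum overlaps can depend on the scale. Of the 344 single miRNAs 7.56% did not overlap, so that a few such sums among 32 lists are no result about these lists. miR-135 was at 2394, 2268 and 2356 RPM in MT_Fe_Ov, against 1946, 1840 and 1734 RPM in WT_Fe_Ov. Most of it was miR-135c-5p, with a log2 fold change of 0.28 (95% interval -0.28 to 0.84). When each ovary library was left out in turn, the medians of let-7, miR-29, miR-26, miR-181 and of miR-23, miR-24 and miR-27 took both signs.

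Some miRNAs differed more between libraries of a group than between the groups. miR-31a-5p was at 4953, 973 and 11306 RPM in MT_Fe_Ov, against 3168, 4445 and 4886 RPM in WT_Fe_Ov. Its 3p arm moved with it, at 727, 177 and 1547 RPM in MT_Fe_Ov and at 370, 809 and 904 RPM in WT_Fe_Ov. The log2 fold change of miR-31a-5p was 0.44 (95% interval -0.95 to 1.83), so that a difference of over 2-fold in the direction of MT_Fe_Ov lay within the interval. Without MT_Fe_Ov replicate 3 the median of both miR-31 arms, 0.33, was -0.61.

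Lists of miRNAs that differed at D30, chosen on other libraries, were then read at D120. Of the 41 miRNAs higher in D30 WT_Fe_Ov than in testis, 40 were tested at D120, where 0 were called between the ovary groups and the median log2 fold change was 0.00. Of the 76 lower in D30 WT_Fe_Ov than in testis, 1 was called, miR-202-5p, and the median was 0.02. At D30, 71 of 250 miRNAs (28.4%) were called between MT_Fe_Ov and WT_Fe_Ov. The 47 that were higher in D30 MT_Fe_Ov had 0 calls and a median of 0.04 at D120, and of the 24 that were lower there, 22 were tested, with 0 calls and a median of -0.04. The median of all 344 was -0.01, and 0.581% of them were called, so that 0 or 1 call in sets of this size is no result about the sets.

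Whether the genotype difference itself changed between the stages was tested as an interaction in a fit of all 27 libraries. It was called for 86 of 399 miRNAs (21.6%), positive for 30 (7.52%) and negative for 56 (14.0%). The D10 libraries in this fit held gonadal primordia together with adjacent tissue. In fits of each stage alone, miR-21-5p had log2 fold changes of 0.15 at D10, -0.04 at D30 and 7.38 at D120. Its interaction of D120 against D30 was 7.69 (SE 0.380, edgeR adjusted p of 7.98e-14), not their exact difference, since it came from the fit of all libraries. miR-202-5p was at 0.07 at D10 and -0.78 at D30 (edgeR adjusted p of 0.0445 at D30, short of the fold change of a DEM). At D30 it held 0.394% to 0.497% of the counts in MT_Fe_Ov, against 0.792% to 1.21% in WT_Fe_Ov, so it was already lower there. Its 0 counts at D120 are thus the only stage at which MT_Fe_Ov lacked it, since the D30 MT_Fe_Ov libraries held 529, 215 and 1746 counts and the D10 libraries 1709 to 3618. None of the other 16 named miRNAs with an interaction was called at D120. The D30 MT_Fe_Ov libraries held 54535 to 351194 counts, against 524342 to 810120 in D30 WT_Fe_Ov, so depth differed between the genotypes at D30. All of these libraries held fewer counts than any D120 library. miR-34a-5p, for example, had a log2 fold change of 2.26 at D30 and -0.01 at D120, where it was at 1031, 684 and 858 RPM in MT_Fe_Ov, against 738, 952 and 791 RPM in WT_Fe_Ov. Values of D120 alone carry the comparison above, and the part of depth in the D30 values was not tested.

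The ovary groups differ in carrying a Y chromosome, and medaka's sex chromosomes are chromosome 1 of the assembly. RefSeq annotates 161 miRNA genes, and 136 of the 437 miRNAs matched one by name, 119 of them tested. Of these genes 2 lie on chromosome 1, and 1 tested miRNA had a hairpin of its name there. This was miR-218a-5p, whose hairpin lies at 13202392 to 13202496 within slit2 on chromosome 1, with a second copy on chromosome 10. It was at 1519, 1398 and 1459 RPM in MT_Fe_Ov, against 1193, 1475 and 1384 RPM in WT_Fe_Ov, a log2 fold change of 0.05 (95% interval -0.40 to 0.51). The other gene on chromosome 1 is mir193a (9834560 to 9834657), which no counted miRNA matched by its exact name. miR-193a-2-5p and miR-193a-2-3p had DESeq2 log2 fold changes of -0.06 and -0.32, and whether they come from this hairpin was not tested. Neither arm of miR-202 matched a RefSeq gene by name, so whether miR-202-5p, a DEM, comes from chromosome 1 was not tested.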

How the data were processed

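Small RNA was size-selected on a gel and sequenced (HiSeq 2000). It came from gonads, but at 10 days post hatch (D10) from gonadal primordia together with adjacent tissue. Values were deposited as counts, whole reads assigned to each mature miRNA: the authors removed short and low-quality reads, mapped the others to ASM223467v1 with miRDeep2 and counted them on FishmiRNA sequences. How reads that match several miRNAs were shared out is not stated. The deposited RPM values are counts scaled by the authors to 1000000 miRNA reads per library. RPM recomputed from the counts differed by at most 4.97e-05, so RPM is relative to miRNA reads alone. Reads carried no molecular identifiers, so floors of 3 counts cover counting error only. No replicate pair agreed within sampling noise (chi-square per degree of freedom of at least 291), and each library counted once.

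Counts of the 9 D120 libraries were fitted with edgeR 4.0.16 (R 4.3.3; quasi-likelihood F test, TMM, group as the only term, Benjamini-Hochberg adjustment over 344 miRNAs). The 95% intervals used the t quantile and the SE from the F statistic. The study's design has testis in the same stage, and these libraries add to the estimate of the spread. On simulated counts with 200 miRNAs changed 4-fold, 158 of 163 tested changed miRNAs were recovered (96.9%) and 4.24% of calls were false. The 95% intervals covered the true value for 92.8% of the simulated miRNAs tested. All simulated miRNAs had the same spread, so spread that differs by miRNA and a library that stands apart were not covered. The results were recomputed with DESeq2 1.42.0, with RLE or library totals as scaling, with other filters and thresholds, with the 6 ovary or all 27 libraries, family sums, a replicate block and leaving out each library. Others, chosen after seeing the data, were a minimum in 2 libraries and the fits of lists and counts without WT_Fe_Ov replicate 3. Other work used Python 3.11.15, numpy 2.4.6, pandas 2.3.3, scipy 1.17.1 and matplotlib 3.10.9.

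Named miRNAs were the DEMs and their other arms, the 10 most abundant, the 5 smallest p-values per direction at 100 RPM or more among those not called, the leader of each list and the 5 narrowest intervals. The other miRNAs named were chosen after their values were seen, from the lists, the non-overlapping miRNAs or the primers. The members and lists were chosen with earlier results of these data known. Sequences came from the study's primer table, coordinates from RefSeq (ASM223467v1). Messenger RNA, DMY included, was not analysed here.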

Additional observations from a re-analysis of the deposited data

Results flagged for a closer look

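The genotype difference at D120 differed from that at D30 by the interaction test for 86 miRNAs, and 18 of the named miRNAs were among them. The values below are interactions, the log2 fold change of MT_Fe_Ov over WT_Fe_Ov at D120 minus that at D30, both taken within the fit of all 27 libraries. Fits of each stage alone gave other fold changes, so an interaction is not the exact difference of those. miR-216a-5p, for example, was at 0.66 at D120 and 6.98 at D30 in the stage fits. They were 7.69 for miR-21-5p, 6.40 for miR-31a-5p, 3.44 for miR-203b-3p, 3.25 for miR-146a-5p, 2.23 for miR-222a-3p, 1.91 for miR-143-3p, 1.88 for miR-10b-5p and 1.45 for miR-135c-5p. They were -1.60 for miR-451-5p, -2.04 for miR-34a-5p, -2.31 for miR-29a-3p, -3.75 for miR-430c-3p, -4.83 for miR-96-5p, -5.20 for miR-33-5p, -7.67 for miR-9-5p and -8.62 for miR-216a-5p. The interactions of miR-202-5p, -21.57, and of miR-204-5p, -21.28, depend on the prior count, since a group had 0 counts in every library. Whether other values listed here, such as that of miR-216a-5p, also rest on a group with few or no counts was not tested. For miR-204-5p that group was D30 WT_Fe_Ov, against 96200 to 163620 RPM in D30 MT_Fe_Ov, while at D120 it was at 14083, 16634 and 13522 RPM in MT_Fe_Ov and at 11023, 16979 and 8811 RPM in WT_Fe_Ov. Except for miR-21-5p and miR-202-5p, none of these miRNAs was called at D120. With 3 libraries a group, single libraries far from their group were not tested for. The D30 MT_Fe_Ov libraries were shallower than those of D30 WT_Fe_Ov, and the part of depth in these interactions was not tested.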

How the results depend on the processing

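miR-21-5p and miR-202-5p kept their direction and call under every alternative that tested them. miR-21-5p ranged from 7.17 to 7.65 (log2) when each D120 library was left out in turn. The range of miR-202-5p was -22.06 to -21.89. Without a WT_Fe_Ov library, miR-202-5p was tested only in the fits with a minimum in 2 libraries, which were chosen after seeing the data. Without both miRNAs the count of DEMs was 0, which their removal as the only DEMs largely fixed in advance. Otherwise it was 2, except for 1 without any 1 of the WT_Fe_Ov libraries (range 1 to 2). There miR-202-5p had counts in 2 libraries alone and failed the minimum of 3, and with a minimum in 2 libraries the count was 2. The count of miRNAs with a 95% interval within 1 unit of 0, 177, was 103 with all 27 libraries in the fit, 109 of 209 with family sums, and 130 to 189 when a library was left out. The lowest r between libraries of a group, 0.980, was 0.930 on linear RPM, 0.971 over tested miRNAs alone and 0.980 to 0.985 when a library was left out, the highest without WT_Fe_Ov replicate 3. The interaction count was 64 to 96 when a library was left out, 106 with DESeq2 and 81 to 88 under the others. The share of miR-21-5p in MT_Fe_Ov was 20.1% to 24.2%, and that of miR-202-5p in WT_Fe_Ov 25.5% to 26.9%. Replicate numbers did not pair the libraries (r of deviations -0.04, 0.08 and 0.19 for the same number). With the replicate block 2 miRNAs were called, miR-21-5p was at 7.43, and 171 intervals lay within 1 unit. The limits are 3 libraries a group, few reads below 10 RPM, a scale relative to miRNA reads, and family members that can share reads.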
